A study of Homo sapiens with 6 samples.

Results

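Interferon-stimulated genes are the genes that a cell switches on when an interferon reaches its surface. Their expression was examined in LX-2, a human line derived from hepatic stellate cells, to ask whether the secretome of tumor cells that overexpress FGFBP1 changed the interferon program of the stellate cell. FGFBP1 is a secreted carrier protein that releases fibroblast growth factors from the matrix. A list of 45 named genes was taken by symbol from the deposited table, which held 60605 rows with an Ensembl identifier among 60780 rows in all, and each symbol had 1 row. The rule that chose the genes used their symbols and no measured value. Cells had been kept for 24 h in medium taken from HCT116, a human colorectal cancer line, whose cells carried an empty vector (Vector-CM, n = 3) or overexpressed FGFBP1 (FGFBP1-CM, n = 3). No allele or drug distinguished the groups beyond the medium, and no LX-2 library without HCT116 medium was analysed here, so the effect of the medium itself was not measured. The sources do not say that the replicates were separate cultures, so p-values measure the spread between these libraries, which may be technical.

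Type I interferons bind IFNAR1 and IFNAR2, whose kinases JAK1 and TYK2 phosphorylate STAT2. With IRF9 it forms part of ISGF3, which binds the interferon-stimulated response element (ISRE), whereas interferon gamma acts through the gamma-activated site (GAS). The induced proteins degrade or bind viral RNA, block membrane fusion, conjugate ISG15 to other proteins or amplify the signal. Many of these genes are also kept at a basal level without added interferon. In the liver, interferon alpha has served as treatment of viral hepatitis, and interferon gamma is known to restrain stellate cell activation.

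The total count per library was 14003780 to 18508113. Across all 16707 genes tested, 9 were higher in FGFBP1-CM (0.0539%) and 11 were lower (0.0658%) at an adjusted p under 0.05. Principal component 1 (43.5% of variance) placed FGFBP1-CM replicate 1 at 38.12, the other FGFBP1-CM libraries at 4.73 and 4.96, and the Vector-CM libraries between -18.26 and -12.86. Of the stellate cell and fibroblast markers, VIM (1966 to 2678 CPM), SPARC (284 to 549 CPM) and COL1A1 (116 to 169 CPM) were abundant. ACTA2 was at 3.73 to 5.46 CPM and THY1 at 0.950 to 1.28 CPM. LRAT, which stores retinoid in quiescent stellate cells, had no count in any library, and DES stayed at or under 0.27 CPM. Of the colorectal markers, EPCAM and CDH1 reached at most 0.81 and 0.44 CPM and CEACAM5 had no count. KRT8 (145 to 173 CPM) and KRT18 (55.6 to 66.6 CPM) were expressed, and CDH17 was at 2.53 to 4.11 CPM. The leukocyte markers summed to 4.48 to 6.65 CPM, the endothelial markers to 10.8 to 13.6 CPM and the plasmacytoid dendritic cell markers to 74.4 to 82.03 CPM, of which TCF4 made up 72.9 to 80.8 CPM while CLEC4C and LILRA4 had no count. The ranges of these 3 lists overlapped between the groups.

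The promoters of the genes were read from RefSeq (GRCh38.p14) as windows of 300 bases, from 250 before to 50 after a transcription start, and 36 of the 45 genes had one. Exact matches were sought on both strands for an ISRE core (GAAA, any 2 bases, then GAAA) and for the GAS core TTCNNNGAA. The ISRE core was found for 25 of the 36 genes (69.4%), against 4.38% of all 27305 gene symbols with a window and 3.57% of all 35116 windows. The GAS core was found for 11 of the 36 genes (30.6%), against 9.38% of all symbols. The 2 motifs overlapped each other in 22 windows of the whole table (0.0626%). A match is a stretch of letters and not a shown binding site.

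The following stretches lie upstream of the RefSeq start and are shown 5′ to 3′ on the strand of the gene, because these genes carry the results below: IRF1, ISG15, IFI6, IFITM1, IFITM3 and BST2 had negative differences with an unadjusted p under 0.05, and IFIT5 had a positive one. Capitals mark the ISRE core (for IRF1, the GAS core), or its reverse complement, and 2 adjacent or overlapping matches run together. The windows of BST2 and IFITM1 also hold the GAS core, which is not marked there. The stretches are chr1:1013339-1013444 (ISG15, plus strand), chr1:27672231-27672393 (IFI6, minus strand), chr11:313955-314039 (IFITM1, plus strand), chr11:320861-320957 (IFITM3, minus strand), chr19:17405700-17405805 (BST2, minus strand), chr10:89414478-89414567 (IFIT5, plus strand) and chr5:132490844-132490942 (IRF1, minus strand). The first match began at position -113 relative to the start in ISG15, -156 in IFI6, -40 in IFITM1, -52 in IFITM3, -130 in BST2, -45 in IFIT5 and -124 in IRF1.
ISG15: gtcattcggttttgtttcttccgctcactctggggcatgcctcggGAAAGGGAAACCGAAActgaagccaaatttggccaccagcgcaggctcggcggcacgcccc
IFI6: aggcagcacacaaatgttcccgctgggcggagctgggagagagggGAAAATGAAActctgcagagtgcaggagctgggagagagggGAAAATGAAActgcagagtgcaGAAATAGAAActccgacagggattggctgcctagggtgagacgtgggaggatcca
IFITM1: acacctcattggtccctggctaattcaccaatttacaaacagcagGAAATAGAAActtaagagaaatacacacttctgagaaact
IFITM3: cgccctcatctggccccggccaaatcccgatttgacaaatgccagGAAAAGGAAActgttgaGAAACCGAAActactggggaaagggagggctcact
BST2: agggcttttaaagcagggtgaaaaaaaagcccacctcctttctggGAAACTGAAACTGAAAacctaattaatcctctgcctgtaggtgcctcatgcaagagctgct
IFIT5: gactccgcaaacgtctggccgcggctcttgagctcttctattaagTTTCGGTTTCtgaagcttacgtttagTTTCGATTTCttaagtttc
IRF1: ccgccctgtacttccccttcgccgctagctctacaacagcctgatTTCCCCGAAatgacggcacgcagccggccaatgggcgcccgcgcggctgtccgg

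Both directions of difference held genes with the ISRE core. It was found for 7 of the 8 genes with a window among the 11 lower at an unadjusted p under 0.05, for 2 of the 4 higher (IFIT5 and TRIM21) and for 16 of the 24 others with a window. The GAS core was found for 3, 0 and 8 of the same genes. These are counts in a few genes and were not tested.

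LX-2 cells expressed the interferon-stimulated genes in both media. Of the 45 genes, 44 had enough counts to be tested, and the 45 together made up 0.401% to 0.473% of a library. Compared per length on the deposited FPKM scale over the 6 libraries, IFI6 was the highest (223 ± 32.6 FPKM, SD, n = 6), followed by ISG15 (194 ± 32.2), BST2 (141 ± 8.94), LGALS3BP (128 ± 17.5), IFIT3 (75.3 ± 12.2) and IFITM3 (66.9 ± 5.71). Within this order IFI6 and ISG15 differed by less than either SD, and BST2 and LGALS3BP, like IFIT3 and IFITM3, by less than the larger SD of the pair. At the other end were MX1 (0.930 ± 0.131 FPKM) and XAF1 (0.811 ± 0.130 FPKM). This order depends on the gene lengths behind the deposited FPKM, which were not compared with annotated lengths. MX1 had a mean of 16.8 CPM, above TRIM21 with 9.89 CPM, although TRIM21 had 5.11 FPKM. CMPK2, a mitochondrial nucleotide kinase, had 0 to 2 counts in every library, under the 3 counts that a count of 0 allows, and was the gene not tested, whereas RSAD2 (viperin), its neighbour on the opposite strand of chromosome 2, had 24.4 to 35.3 CPM. Such limits cover counting error only. CPM, the count scaled to library size, is used below for a single gene across libraries, and FPKM is used where genes are compared.

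**Figure D1:**
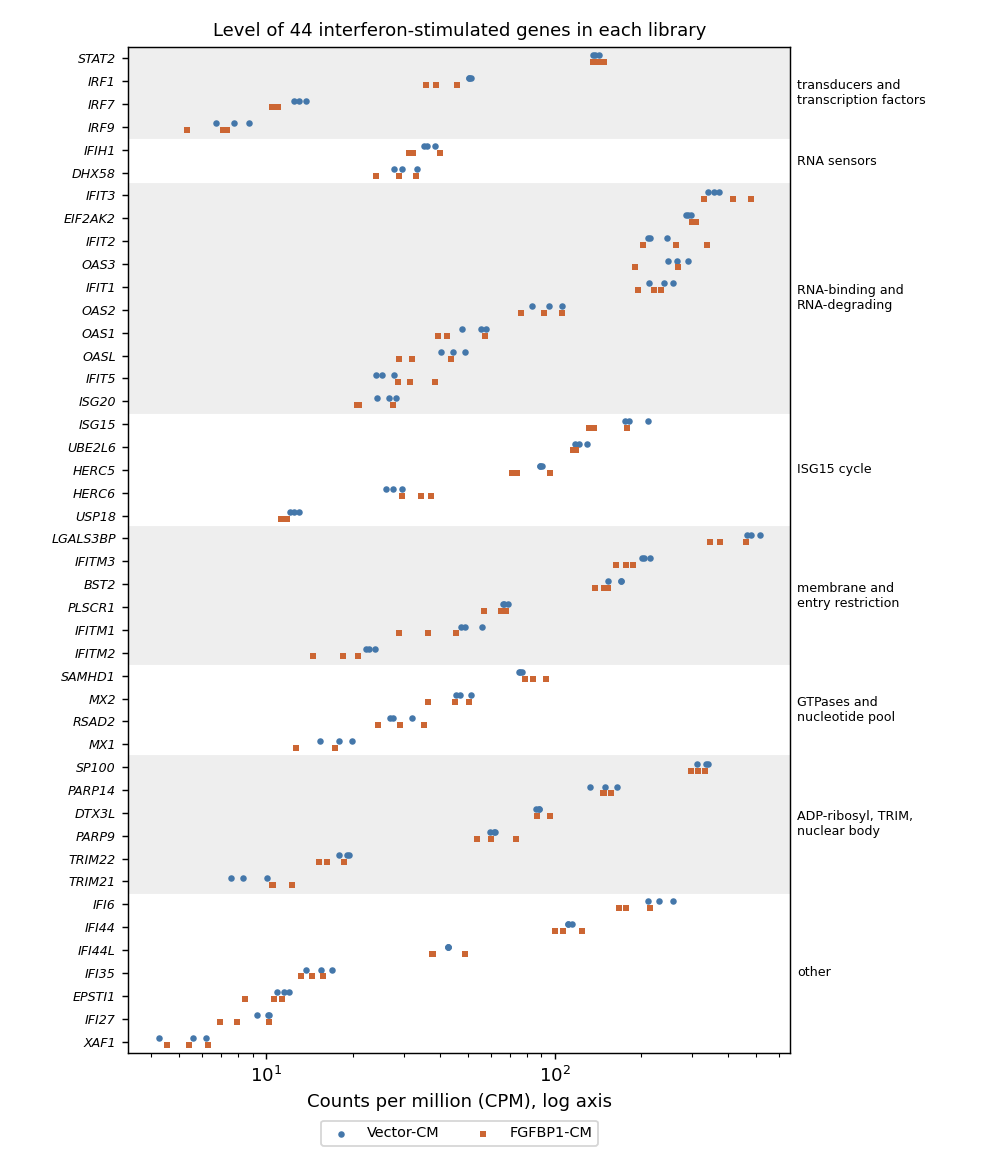
Level of the 44 tested interferon-stimulated genes in each library, in CPM on a log axis; circles are the 3 Vector-CM libraries, squares the 3 FGFBP1-CM libraries, and grey bands separate the roles. The levels span from XAF1 (4.25 to 6.28 CPM) to LGALS3BP (346 to 516 CPM), and the groups lie close together for most genes.

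No interferon-stimulated gene passed an adjusted p of 0.05 between FGFBP1-CM and Vector-CM in the edgeR quasi-likelihood test, and the lowest adjusted p was 0.0780, for IRF1. DESeq2 called 6 of them, all lower (IFI6, ISG15, IRF1, IFITM1, IFITM3 and LGALS3BP, 13.6% of 44), against 282 of all genes lower (1.69%) and 334 higher. On the FPKM values limma called 0 of them and 1 of all genes. At an unadjusted p under 0.05, 11 of the 44 genes were lower in FGFBP1-CM (25%, against 10.7% of all genes tested) and 4 were higher (9.09%, against 11.1%). The 2 groups did not overlap for 8 genes that were lower (18.2%, against 13.2% of all genes) and for 5 that were higher (11.4%, against 12.8%). Of the 44 genes, 31 had a negative log2 fold change (70.5%, against 49.3% of all genes), and their median was -0.10 (quartiles -0.24 and 0.02) against 0.00 (quartiles -0.14 and 0.15) over all genes. In bulk RNA, fewer cells of a kind and less RNA per cell cannot be told apart.

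The 3 FGFBP1-CM libraries did not share 1 level of the program. The summed level of the genes was 4418, 4792 and 4567 CPM in Vector-CM and 4299, 4701 and 3985 CPM in FGFBP1-CM. The groups thus overlapped. Replicate 2 had the highest sum in Vector-CM as well as in FGFBP1-CM. It was the highest library of its group for 23 of the 44 genes in Vector-CM and for 33 in FGFBP1-CM. Against the Vector-CM mean, the median gene stood at -0.10 in FGFBP1-CM replicate 1, 0.03 in replicate 2 and -0.20 in replicate 3 on the log2 scale. In FGFBP1-CM replicate 3, 33 of the 44 genes were below every Vector-CM library (75%, against 30.7% of all genes) and 5 above (11.4%, against 29.7%). In replicate 1, 26 were below (59.1%, against 34.9%) and 9 above (20.5%, against 37.1%). In replicate 2, 9 were below (20.5%, against 27.7%) and 16 above (36.4%, against 28.2%). Without FGFBP1-CM replicate 2 the median difference was -0.19 and 11 genes passed an adjusted p of 0.05, all lower (ISG15, IFI6, HERC5, IRF1, IFITM1, IFITM2, IFITM3, OAS1, OAS3, OASL and LGALS3BP). That is 25% of the 44, and in the same fit 474 of all 17133 genes passed as lower (2.77%) and 409 as higher (2.39%). Without FGFBP1-CM replicate 3 the median was -0.06 and 3 genes passed, all higher (IFIT2, IFIT3 and IFIT5, 6.82%), while 269 of all 17155 genes passed as higher (1.57%) and 133 as lower (0.775%). Without FGFBP1-CM replicate 1, 0 of the 44 and 72 of all genes passed, and the log2 fold change shrank to -0.30 for IFITM1, -0.22 for IFITM2, 0.23 for IFIT5, 0.06 for IFIT3 and 0.11 for SAMHD1. With 1 library left out, an arm of 2 libraries remained.

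**Figure D2:**
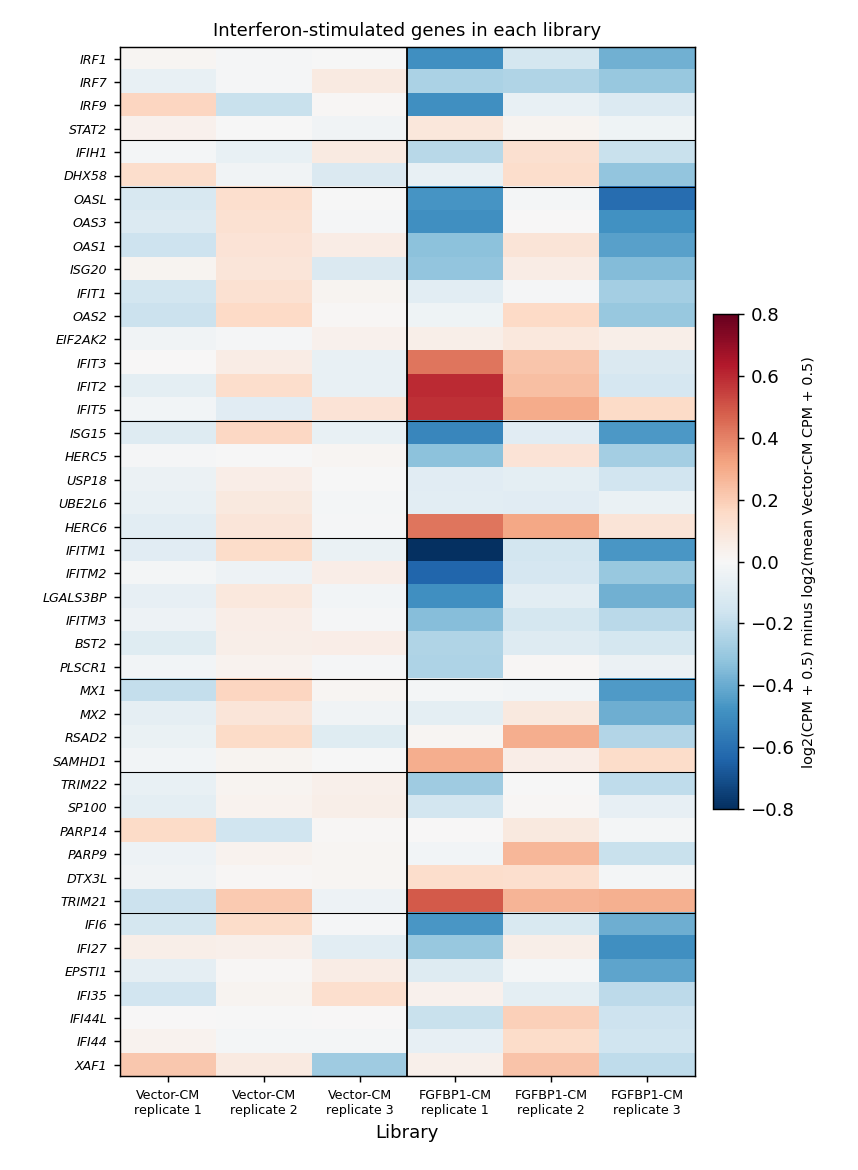
Log2 ratio of each tested gene in each library to its mean over the Vector-CM libraries, with 0.5 CPM added to both; columns are libraries, rows are genes ordered by role and fold change, black lines separate roles and groups, blue is lower and red is higher. The IFITM genes, IRF1 and LGALS3BP are blue in all 3 FGFBP1-CM libraries, the IFIT2, IFIT3 and IFIT5 rows are reddest in replicate 1, and FGFBP1-CM replicate 2 is the palest of the 3.

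The genes grouped as membrane and entry restriction factors held 5 of the 11 lower genes, among them LGALS3BP, which is a secreted protein. The roles were set with earlier results of these data known. All 6 genes of this role had a negative log2 fold change, with a median of -0.27. For 5 of them the unadjusted p was under 0.05 and Vector-CM and FGFBP1-CM did not overlap. IFITM1, IFITM2 and IFITM3 are small transmembrane proteins that hinder fusion of viral and cell membranes, and lie together on chromosome 11 (307631 to 327537). IFITM1 was at 47.5, 56.0 and 48.8 CPM in Vector-CM replicates 1 to 3 and at 28.96, 45.7 and 36.5 CPM in FGFBP1-CM replicates 1 to 3. Its log2 fold change of -0.46 ± 0.13 (SE, adjusted p = 0.0892) was the lowest of the list, and the lowest library was FGFBP1-CM replicate 1. IFITM2 was at 22.7, 22.2 and 23.8 CPM in Vector-CM and at 14.6, 20.8 and 18.5 CPM in FGFBP1-CM (log2 fold change -0.36 ± 0.12, adjusted p = 0.119). The exons of IFITM1 and IFITM2 share 351 bases on the same strand and the genes are close copies, so reads could be split between them and their values are uncertain. IFITM3, which acts in endosomes, was at 200, 214 and 205 CPM in Vector-CM and at 163, 187 and 177 CPM in FGFBP1-CM (log2 fold change -0.23 ± 0.07, adjusted p = 0.0924).

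LGALS3BP, a secreted glycoprotein that binds galectins and matrix, had the highest CPM of this group. It was at 466, 516 and 479 CPM in Vector-CM and at 346, 459 and 373 CPM in FGFBP1-CM, a log2 fold change of -0.31 ± 0.09 (adjusted p = 0.0968). BST2, or tetherin, which holds budding virions at the plasma membrane, had the highest FPKM of the group. It was at 153, 169 and 170 CPM in Vector-CM and at 139, 153 and 149 CPM in FGFBP1-CM (log2 fold change -0.16 ± 0.07, adjusted p = 0.188). The highest FGFBP1-CM library of LGALS3BP and of BST2 was replicate 2, which lay just under the lowest Vector-CM library. PLSCR1, a phospholipid scramblase, overlapped between the groups (log2 fold change -0.09 ± 0.08).

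Among the transducers and transcription factors, IRF1 and IRF7 were separated between the groups while STAT2 was level. IRF1, a transcription factor induced through the GAS, was at 51.3, 50.4 and 50.5 CPM in Vector-CM and at 36.0, 46.1 and 38.8 CPM in FGFBP1-CM. The 3 Vector-CM values lay within 1 CPM of each other, and the log2 fold change was -0.34 ± 0.09 (adjusted p = 0.0780). IRF7, which drives expression of the interferon alpha genes, was at 12.6, 13.02 and 13.8 CPM in Vector-CM and at 10.9, 11.1 and 10.5 CPM in FGFBP1-CM (log2 fold change -0.28 ± 0.10, adjusted p = 0.155). All 3 FGFBP1-CM libraries of IRF7 were alike, replicate 2 included. IRF9, the DNA-binding part of ISGF3, overlapped between the groups (5.33 to 8.71 CPM over the 6 libraries, log2 fold change -0.24 ± 0.16). STAT2, its partner, had the highest FPKM of the group and was at 143, 139 and 136 CPM in Vector-CM and at 148, 141 and 136 CPM in FGFBP1-CM, a log2 fold change of 0.03 ± 0.06. Exons of IRF1 (2185 of 7799 bases) and of IRF9 (1838 of 3794 bases) overlap other annotated genes, and the strand setting of the counting is not given in the sources used here. The 2 cytosolic RNA sensors, IFIH1 (MDA5) and DHX58 (LGP2), overlapped between the groups. DHX58, the higher by FPKM, was at 33.3, 29.5 and 27.8 CPM in Vector-CM and at 28.8, 33.2 and 24.0 CPM in FGFBP1-CM (log2 fold change -0.08 ± 0.11).

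The 10 RNA-binding and RNA-degrading effectors split within families. The oligoadenylate synthetases make the 2′-5′ oligoadenylate that activates RNase L, and OASL is their relative without that activity. OASL was at 40.5, 48.8 and 44.3 CPM in Vector-CM and at 32.0, 43.9 and 28.99 CPM in FGFBP1-CM (log2 fold change -0.35 ± 0.13, adjusted p = 0.146). OAS3 was at 247, 290 and 265 CPM in Vector-CM and at 190, 268 and 191 CPM in FGFBP1-CM (log2 fold change -0.31 ± 0.11, adjusted p = 0.150). For both, FGFBP1-CM replicate 2 lay within the Vector-CM range and the other 2 FGFBP1-CM libraries were below it. OAS1 (-0.21 ± 0.12), OAS2 (-0.05 ± 0.11) and the exonuclease ISG20 (-0.20 ± 0.11) had an unadjusted p above 0.05, and their groups overlapped.

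The IFIT genes of the list lie near each other on chromosome 10 (89283694 to 89421001), and of their proteins IFIT1 and IFIT5 bind the 5′ end of foreign RNA. IFIT5 was at 25.2, 24.0 and 27.7 CPM in Vector-CM and at 38.7, 31.6 and 28.6 CPM in FGFBP1-CM, a log2 fold change of 0.36 ± 0.11 (adjusted p = 0.0974), and all 3 FGFBP1-CM libraries were above the Vector-CM range. IFIT3 was at 356, 371 and 341 CPM in Vector-CM and at 480, 415 and 328 CPM in FGFBP1-CM (log2 fold change 0.19 ± 0.11, adjusted p = 0.305). IFIT2 was at 211, 246 and 213 CPM in Vector-CM and at 337, 263 and 203 CPM in FGFBP1-CM (0.26 ± 0.14, adjusted p = 0.279). For both, FGFBP1-CM replicates 1 and 2 were above every Vector-CM library and replicate 3 was below every one. IFIT1 had the opposite sign (-0.12 ± 0.08), with overlapping groups. EIF2AK2, the kinase PKR that stops translation on double-stranded RNA, was at 285 to 297 CPM in Vector-CM and at 300.2 to 309 CPM in FGFBP1-CM (log2 fold change 0.06 ± 0.06), which did not overlap but differed little.

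ISG15 is a ubiquitin-like protein that interferon induces. Of the 5 genes grouped as ISG15 and its cycle, 4 had a negative log2 fold change, and HERC6 had a positive one. ISG15 was at 176, 212 and 181 CPM in Vector-CM and at 131, 178 and 137 CPM in FGFBP1-CM (log2 fold change -0.35 ± 0.11, adjusted p = 0.0980). FGFBP1-CM replicate 2 lay within the Vector-CM range and the other 2 were below it. The conjugating enzyme UBE2L6 (-0.08 ± 0.06), the ligase HERC5 (-0.15 ± 0.10) and the protease USP18, which removes ISG15 (-0.11 ± 0.10), had an unadjusted p above 0.05. HERC6, a relative of HERC5, was at 26.1, 29.6 and 27.5 CPM in Vector-CM and at 37.5, 34.4 and 29.7 CPM in FGFBP1-CM (log2 fold change 0.29 ± 0.10, adjusted p = 0.115), and FGFBP1-CM replicate 3 was just above the highest Vector-CM library.

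SAMHD1, which hydrolyses deoxynucleotides and starves reverse transcription, was at 75.03, 77.3 and 75.9 CPM in Vector-CM and at 93.2, 79.1 and 84.3 CPM in FGFBP1-CM (log2 fold change 0.17 ± 0.07, adjusted p = 0.192). The groups did not overlap. Its exons overlap those of TLDC2 on the opposite strand by 1159 bases. The dynamin-like GTPases MX1 (-0.16 ± 0.13) and MX2 (-0.12 ± 0.10) and the radical enzyme RSAD2 (0.04 ± 0.12) had overlapping groups. TRIM21, the cytosolic receptor for antibody-coated virus, was at 7.59, 10.1 and 8.36 CPM in Vector-CM and at 12.3, 10.5 and 10.6 CPM in FGFBP1-CM. Its log2 fold change of 0.37 ± 0.13 (adjusted p = 0.140) was the highest of the list. The ADP-ribosyltransferases PARP9 (0.03 ± 0.10) and PARP14 (0.02 ± 0.08), the ubiquitin ligase DTX3L (0.09 ± 0.07) and TRIM22 (-0.17 ± 0.10) overlapped between the groups. SP100, a component of nuclear bodies and the highest of its group by FPKM, was at 312, 336 and 341 CPM in Vector-CM and at 298, 331 and 315 CPM in FGFBP1-CM (log2 fold change -0.07 ± 0.07).

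Of the remaining interferon-inducible proteins, IFI6, a mitochondrial and endoplasmic reticulum protein that counters flaviviruses, had an unadjusted p under 0.05. It was at 211, 257 and 231 CPM in Vector-CM and at 168, 214 and 177 CPM in FGFBP1-CM (log2 fold change -0.32 ± 0.09, adjusted p = 0.0929), and FGFBP1-CM replicate 2 was above the lowest Vector-CM library. IFI27 (-0.25 ± 0.15), EPSTI1 (-0.18 ± 0.13), IFI35 (-0.08 ± 0.11), IFI44L (-0.04 ± 0.10), IFI44 (-0.02 ± 0.08) and XAF1 (0.01 ± 0.18) overlapped between the groups. The role medians thus ran from -0.27 for the membrane and entry group to 0.02 for the ADP-ribosyltransferases, TRIM ligases and SP100. Between them were the transducers (-0.26), ISG15 cycle (-0.11), RNA effectors (-0.09), RNA sensors (-0.08), remaining proteins (-0.08) and GTPases and nucleotide enzymes (-0.04).

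**Figure D3:**
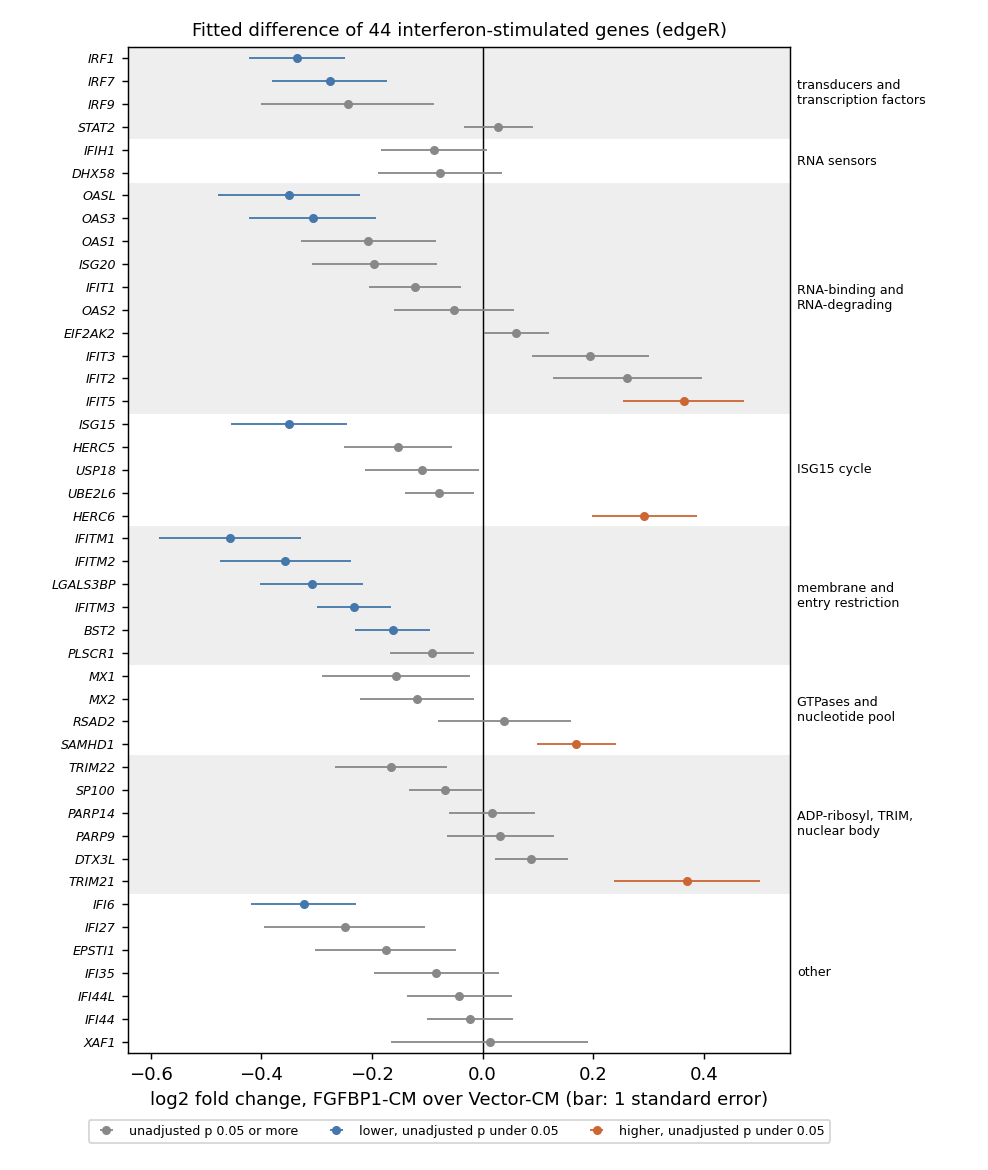
Fitted log2 fold change of FGFBP1-CM over Vector-CM for the 44 tested genes by role; points are edgeR estimates (n = 3 libraries per group), bars are 1 standard error, and colours mark the sign of genes with an unadjusted p under 0.05. The estimates run from -0.46 (IFITM1) to 0.37 (TRIM21). Of the 6 genes grouped as membrane and entry restriction factors, 5 are marked as lower, among them the secreted LGALS3BP.

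Neighbouring genes of the list were compared within each library, since a ratio of 2 genes does not depend on the scaling of the library. Of the 11 pairs of list members that follow each other within 100000 bases, 4 had ratios that did not overlap between the groups. The share among neighbouring genes outside the list was not computed. For single genes, 12.8% of all genes tested were higher and 13.2% lower without overlap. IFIT1 is in the pair with IFIT5 and in the pair with IFIT3, so these are not separate observations. HERC5 stood at 341, 301 and 328 CPM per 100 CPM of HERC6 in Vector-CM and at 189, 280 and 249 in FGFBP1-CM. IFIT5 stood at 11.9, 9.37 and 11.6 CPM per 100 CPM of IFIT1 in Vector-CM and at 17.5, 13.5 and 14.7 in FGFBP1-CM. IFIT1 per 100 CPM of IFIT3 was 59.7, 69.2 and 70.0 against 46.2, 56.3 and 59.4, and OAS2 per 100 CPM of OAS3 was 33.9, 36.6 and 36.0 against 48.6, 39.5 and 40.2. FGFBP1-CM replicate 1 was the most extreme library in all 4 pairs. An exact permutation test of a single ratio with 3 libraries against 3 cannot go below a 2-sided p of 0.1, which each of the 4 reached (0.275 after Benjamini-Hochberg adjustment over the 11 pairs), so none passed.

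**Figure D4:**
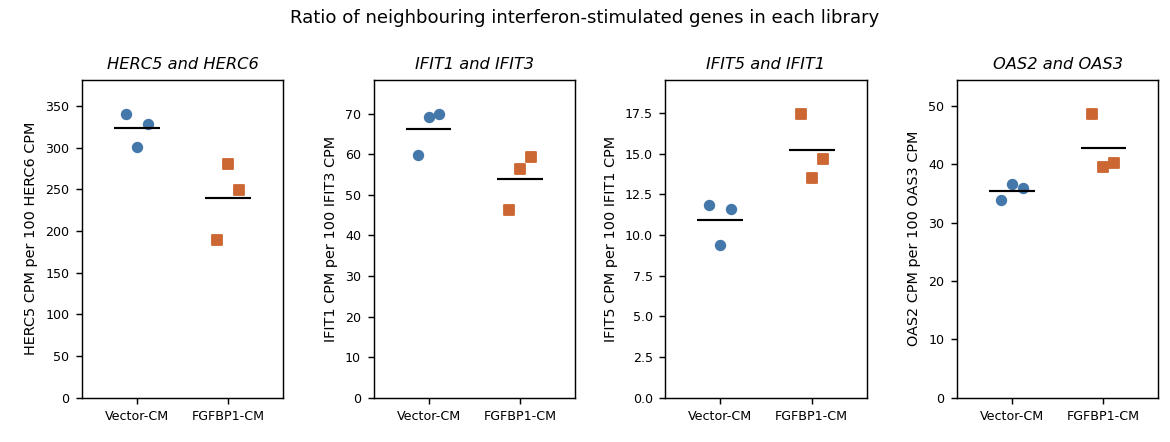
CPM of one gene per 100 CPM of its neighbour in each library, for the 4 of 11 neighbouring pairs whose groups did not overlap; circles are Vector-CM, squares FGFBP1-CM, black lines the group means (n = 3), and each axis starts at 0. The ratio of HERC5 to HERC6 runs from 301 to 341 in Vector-CM and from 189 to 280 in FGFBP1-CM.

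The sign of the difference varied with the base composition of the transcripts. Across the 44 genes, the log2 fold change had a Spearman's rho of -0.58 with the GC content of the longest transcript and of 0.43 with its length. Over 16401 tested genes with both values, rho was -0.21 and 0.10. These are correlations across genes of the same 6 libraries, which are not independent replicates. The 11 lower genes had a median GC content of 56.1% (51.4% to 66.9%) and the 4 higher genes 45.3% (37.4% to 50.9%), so the 2 sets did not overlap in GC content. After each library was corrected for its trend with GC content and length, 36 of the 44 genes had a negative log2 fold change, their median was -0.12, and 10 were lower and 3 higher at an unadjusted p under 0.05. The values became -0.24 ± 0.10 for ISG15, -0.41 ± 0.12 for IFITM1, -0.33 ± 0.09 for IRF1 and 0.29 ± 0.11 for IFIT5. BST2 (-0.11 ± 0.07), IRF7 (-0.19 ± 0.11) and SAMHD1 (0.14 ± 0.07) no longer had an unadjusted p under 0.05, and TRIM22 (-0.22 ± 0.10) gained one. Of the 6 genes grouped as membrane and entry restriction factors, 4 still had one. EIF2AK2 was among the 5 genes whose sign changed (to -0.04 ± 0.07). The part of GC content in the differences was otherwise not tested.

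**Figure D5:**
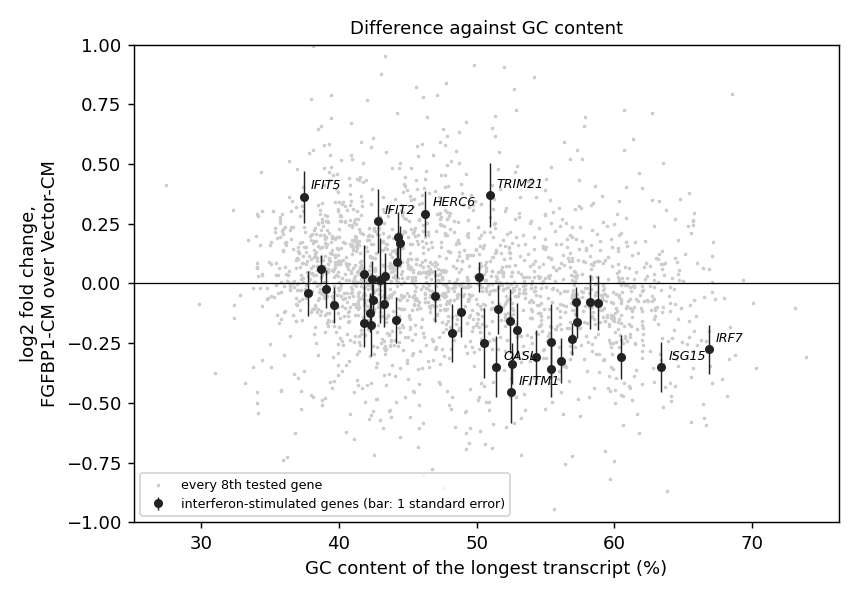
Log2 fold change of FGFBP1-CM over Vector-CM against the GC content of the longest annotated transcript; black points are the 44 tested interferon-stimulated genes with bars of 1 standard error, and grey points are every 8th tested gene between -1 and 1. All interferon-stimulated genes from 51.4% GC content upward lie below 0. At lower GC content both signs occur: IFIT5, IFIT2, HERC6 and TRIM21 are among those above 0, and IFIT1, IFI44L, EPSTI1, HERC5 and TRIM22 among those below 0.

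Other transcripts moved with the groups as well. The 6 tested hepatocyte markers all had negative log2 fold changes, 4 of them past the adjusted threshold (ALB, APOB, AFP and FGA). These 4 were scarce: ALB reached at most 4.38 CPM, and FGA had 0 to 2 counts per FGFBP1-CM library. The 12 markers summed to 41.5, 44.1 and 44.5 CPM in Vector-CM and to 18.3, 28.1 and 22.4 CPM in FGFBP1-CM. Most of that was SERPINA1 (30.0, 30.6 and 28.3 against 16.2, 25.4 and 20.4 CPM), which did not pass (adjusted p = 0.0690). All 10 tested stellate cell and fibroblast markers had negative log2 fold changes (median -0.23, lowest adjusted p 0.0568, for TAGLN). The markers of that list summed to 3253, 3491 and 3415 CPM against 2518, 3051 and 2733 CPM. VIM alone held 2465, 2678 and 2631 CPM of the sum in Vector-CM and 1966, 2364 and 2151 CPM in FGFBP1-CM. In that sum, FGFBP1-CM replicate 1 was the lowest and replicate 2 the highest of the FGFBP1-CM libraries. The summed interferon-stimulated genes were also highest in replicate 2 but lowest in replicate 3 (4299, 4701 and 3985 CPM in replicates 1 to 3). Replicate 3 was the lowest FGFBP1-CM library for 24 of the 44 genes and replicate 1 for 17. The part of these marker transcripts in the differences of the interferon-stimulated genes was not tested.

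The rest of the pathway was read from lists of its ligands, receptors, kinases, sensors and further targets. None of the genes of these lists passed an adjusted p of 0.05 in the edgeR test (0 of 70), and 9 were higher and 9 lower at an unadjusted p under 0.05 (12.9% each, near the 11.1% and 10.7% of all genes). DESeq2 called 7 of the 70 (2 higher, 5 lower). In that fit it called 616 of all 16707 genes, 2% as higher and 1.69% as lower. On the FPKM values limma called 0 of the 70. Of the 22 interferon genes, 15 had no count in any library, and IFNE, an interferon of epithelia, was the one that could be tested. It was at 3.18, 2.46 and 1.82 CPM in Vector-CM and at 6.49, 4.46 and 3.67 CPM in FGFBP1-CM (log2 fold change 0.96 ± 0.25, adjusted p = 0.0767), so the groups did not overlap. IFNB1, named outside the rule for named genes, was at 0.0674 to 0.279 CPM in Vector-CM and at 0.183 to 0.377 CPM in FGFBP1-CM, where 3 counts were 0.158 to 0.217 CPM. All 6 receptor genes were tested (median log2 fold change -0.13).

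Of the receptors, IFNAR1 and IFNGR2 had an unadjusted p under 0.05, with opposite signs. IFNAR1, a chain of the type I receptor, was at 63.9, 71.8 and 64.4 CPM in Vector-CM and at 102, 75.0 and 74.6 CPM in FGFBP1-CM (log2 fold change 0.33 ± 0.11, adjusted p = 0.114). IFNGR2, the signalling chain of the interferon gamma receptor, was at 47.8, 58.0 and 56.1 CPM in Vector-CM and at 42.0, 46.2 and 44.96 CPM in FGFBP1-CM (-0.28 ± 0.08, adjusted p = 0.0961). Neither pair of groups overlapped. Of the 12 tested kinases, STATs and feedback inhibitors (median -0.10), STAT3 was at 207, 210 and 214 CPM in Vector-CM and at 161, 184 and 187 CPM in FGFBP1-CM (-0.25 ± 0.07, adjusted p = 0.0877). The phosphatase PTPN11 had an unadjusted p under 0.05 in the other direction (0.15 ± 0.07, adjusted p = 0.224).

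Of 15 tested genes of nucleic acid sensing (median -0.01), STING1, the adaptor of cytosolic DNA sensing, was at 81.2, 89.8 and 81.7 CPM in Vector-CM and at 64.7, 69.6 and 62.4 CPM in FGFBP1-CM (-0.36 ± 0.07, adjusted p = 0.0568). IFI16, a DNA sensor, was at 258, 240 and 257 CPM in Vector-CM and at 289, 291 and 301 CPM in FGFBP1-CM (0.22 ± 0.06, adjusted p = 0.0847). In both genes the 3 FGFBP1-CM libraries stood together, replicate 2 included. Of 36 further interferon-inducible genes tested (median -0.06), 5 were higher and 6 lower at an unadjusted p under 0.05. The lowest p-values were those of TAP1, the peptide transporter of antigen presentation (-0.32 ± 0.07, adjusted p = 0.0568), SAMD9, a restriction factor of poxviruses (0.40 ± 0.09, adjusted p = 0.0619), and PML, the scaffold of nuclear bodies (-0.28 ± 0.07, adjusted p = 0.0747). SAMD9 was at 185, 157 and 157 CPM in Vector-CM and at 242, 226 and 192 CPM in FGFBP1-CM. TAP1 was at 86.2, 91.5 and 87.3 CPM in Vector-CM and at 66.9, 74.4 and 71.6 CPM in FGFBP1-CM, and PML at 72.2, 78.7 and 74.1 CPM and at 58.7, 66.5 and 60.1 CPM. The groups did not overlap for any of these 3 genes.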

How the data were processed

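RNA sequencing was analysed from 6 libraries of LX-2 cells, 3 in Vector-CM and 3 in FGFBP1-CM, with groups from the labels. Reads were aligned by the authors (HISAT2 2.0.5 in the submitters' processing notes), who deposited the raw count of each gene from featureCounts 1.5.0-p3. The authors also deposited FPKM values, scaled to gene length and library. The notes name hg18, whereas 96.3% of the Ensembl identifiers were found in GENCODE release 29 (GRCh38), from which coordinates, GC content and lengths were taken, so the build behind the counts may differ. The strand setting is not given in the sources used here, and the methods mention poly(A) selection as well as ribosomal RNA depletion. Without strand, reads of the 18 list members whose exons overlap those of another gene could fall to either gene.

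Counts were tested with edgeR 4.0.16 in R 4.3.3 (filterByExpr, TMM, quasi-likelihood F-test), with Benjamini-Hochberg adjustment over 16707 genes at 0.05. All 60780 rows entered, including 175 without an Ensembl identifier (0.0769% of counts). The SE is the log2 fold change divided by the square root of F. CPM uses the TMM-scaled library size. Named genes were list members with an unadjusted p under 0.05, the member with the highest mean FPKM of each role, and up to 3 genes of lowest p in each pathway list, with other members given by value or count. The genes, roles, lists and tests were chosen with earlier results of these data known. The procedure was tested on simulated counts. A single gene of the pathway lists was left out of the text and is not reported here.

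The same results were recomputed with RLE scaling, with library sizes alone, with no filter, with a mean of at least 1 CPM, DESeq2 1.42.0, limma 3.58.1 on log2(FPKM + 1) and log2(FPKM + 0.1), a block on the replicate number, a correction for GC content and length (loess, span 0.3), an adjusted p under 0.1, and leaving out each library. Depth was 14003780 to 18508113 counts per library, so 3 counts were 0.158 to 0.217 CPM. No libraries were merged, since all replicate pairs differed by more than sampling noise.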

Additional observations from a re-analysis of the deposited data

How the results depend on the processing

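The 0 calls among the interferon-stimulated genes stayed at 0 with RLE scaling, library size only, a mean of at least 1 CPM, both limma fits and both GC corrections. Without a filter on low counts they became 11, with 3 higher (6.82%, against 2.19% of all 38002 genes) and 8 lower (18.2%, against 1.44%). In that fit the edgeR prior degrees of freedom were infinite, against 9.32 as reported, so gene variances followed the common trend alone. DESeq2 called 6, all lower (IFI6, ISG15, IRF1, IFITM1, IFITM3 and LGALS3BP, 13.6%, against 1.69%). At an adjusted p under 0.1 there were 7, with 1 higher (2.27%, against 2.97%) and 6 lower (13.6%, against 2.6%). With 1 library left out there were 0 to 11. All genes called, 20 as reported, numbered 38 with RLE scaling, 1382 without a filter, 11 at a mean of at least 1 CPM, 616 with DESeq2, 1 with each limma fit, 109 with the GC correction, 932 at an adjusted p under 0.1, and 4 to 883 with 1 library left out. The 0 pathway genes became 14 without a filter, 7 with DESeq2, 1 with the GC correction, and 0 to 5 with 1 library left out. The 4 marker genes became 11 without a filter, 0 with each limma fit, and 1 to 9 with 1 library left out. Genes of the list at an unadjusted p under 0.05, 15 as reported, numbered 11 to 23 with 1 library left out. A looser threshold raises the count by construction. The cause of the other changes was not tested.

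Over 15033 genes, deviations from the group means correlated at -0.118, -0.022 and 0.148 between the libraries of number 1, 2 and 3. Among the 44 tested list members, number 2 was the highest library for 23 in Vector-CM and for 33 in FGFBP1-CM. The labels do not say whether equal numbers belong together. With the replicate number as a block, 2 list members (ISG15 and IFI6, both lower), 90 of all genes and 2 pathway genes were called. With the block and the GC correction, these were 0, 116 and 1, and 8 marker genes were called.

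The median of the tested members, -0.10, was -0.07 with library size only, where all genes had a median of 0.04, and ranged from -0.19 to -0.06 with 1 library left out. With 1 library left out, the medians ranged from -0.15 to -0.08 for receptors, from -0.12 to -0.06 for kinases, STATs and feedback inhibitors, from -0.08 to 0.02 for nucleic acid sensing and from -0.09 to -0.03 for further inducible genes. The receptor median, -0.13, was -0.054 with limma on log2(FPKM + 1). Of 304 values of the 19 named members under 16 alternatives, 3 changed sign, all with 1 library left out: DHX58 ranged from -0.192 to 0.0336 and STAT2 from -0.0025 to 0.0578. A further 29 passed the threshold only under an alternative. CMPK2 and 21 of the 22 interferon genes had too few counts to be tested, and 15 of these interferon genes had no count in any library. The reason for the low counts was not tested.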
